A study of Mus musculus with 7 samples.

Results

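The enteric nervous system is a network of neurons and glia between the muscle layers and in the submucosa of the gut, where it controls contraction, secretion and blood flow. Its cells descend from neural crest cells that enter the gut in the embryo. Their migration and survival depend on the receptor tyrosine kinase Ret, and the glial lineage on the transcription factor Sox10. A set of 7 genes tied to these cells or to the wall that houses them were followed across all arrays of a mouse colitis series. Tubb3, Ret and Vip stand for neurons and Sox10 and S100b for glia. Hand1 and Mab21l2 are developmental regulators, taken in as transcription related genes of gut mesenchyme and neurons. They were chosen by symbol in the platform annotation, which gave 10 probe sets for these 7 genes, out of 12422 probe sets and 8251 genes on the array.

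Colon RNA came from female CD-1 outbred mice that were 10-12 weeks old when the experiment began. Colitis was induced with 6 enemas of TNBS, a small reactive chemical that makes tissue proteins immunogenic, in ethanol, and the controls belonged to saline groups. No group with ethanol alone was analysed here, so each difference is that of TNBS with ethanol against saline. Tissue was taken at 4 times after the last enema and is named by the week of the experiment: 3 days for week 6 (TNBS RNA pooled from 6 mice), 2 weeks for week 8 (4 mice), 4 weeks for week 10 (5 mice) and 6 weeks for week 12 (4 mice). For saline there were 2 pools, one of week 6 (5 mice, on 2 arrays) and a later one (4 mice, of which 2 were from week 8 and 2 from week 10). Week 12 is set against this later pool, which holds no mice of that age. Tissue was cut 4 ± 0.5 cm from the anus. Markers of smooth muscle and of epithelium were both measurable in this RNA, as given below. In such bulk RNA fewer cells of a type and less RNA per cell cannot be told apart.

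The labels give RNA of 5 mice for each of both week 6 saline arrays and 5 such mice in all, so the arrays were taken as 1 pool, although no label says so outright. Every group is then 1 pool, and a comparison of a single time has no replicates and no test. The only repeat is the second array of the week 6 saline pool, whose log2 values differed from those of the first with an SD of 0.299 over the probe sets past the filter. The arrays had median signals of 51.8 to 61.2, with 45.4% to 49.2% of probe sets below a signal of 50, which was used as the floor. Beta-actin, a gauge of RNA integrity, read 1.14 to 1.24 times as high at its 3' as at its 5' probe set on the 3 week 6 arrays and 0.798 to 0.818 times on the 4 later arrays, a split between times rather than between TNBS and saline. Colon tissue was recognisable in its markers: 16 of 18 epithelial and 13 of 14 smooth muscle genes on the array had a probe set reaching a signal of 100 in at least 1 pool, which was the filter for all comparisons. Neural markers were far scarcer. Over the whole array 4316 of 8251 genes passed. Of 39 enteric neuron genes on the array 9 passed, and of 15 glial and Schwann cell genes 5 passed. Among those that did not were Elavl4, an RNA-binding protein of neurons, with a highest signal of 14.8, Phox2a, a transcription factor of autonomic neurons, with 18.0, and Snap25, a protein of synaptic vesicle release, with 38.7. Gfap, a filament protein of glia, reached 75.6. Most of the listed neural markers thus did not reach the filter in this colon RNA. Some of these lay between the floor and the filter, such as Ncam1 with a highest signal of 97.9 and Nes with 92.

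Among the 7 genes, one probe set each of Sox10, Tubb3, Hand1 and Mab21l2 passed the filter, 4 of 10 in all, a share close to the 43.9% of all probe sets that passed. All 4 also passed on the TNBS arrays alone. These 4 read lower in the TNBS pool than in its saline pool at each of the 4 times, which held for 15.6% of all probe sets past the filter. For 3 of them every TNBS pool read lower than either saline pool, which held for 9.27%. None passed the test that combined the times after adjustment over all probe sets.

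**Figure D1:**
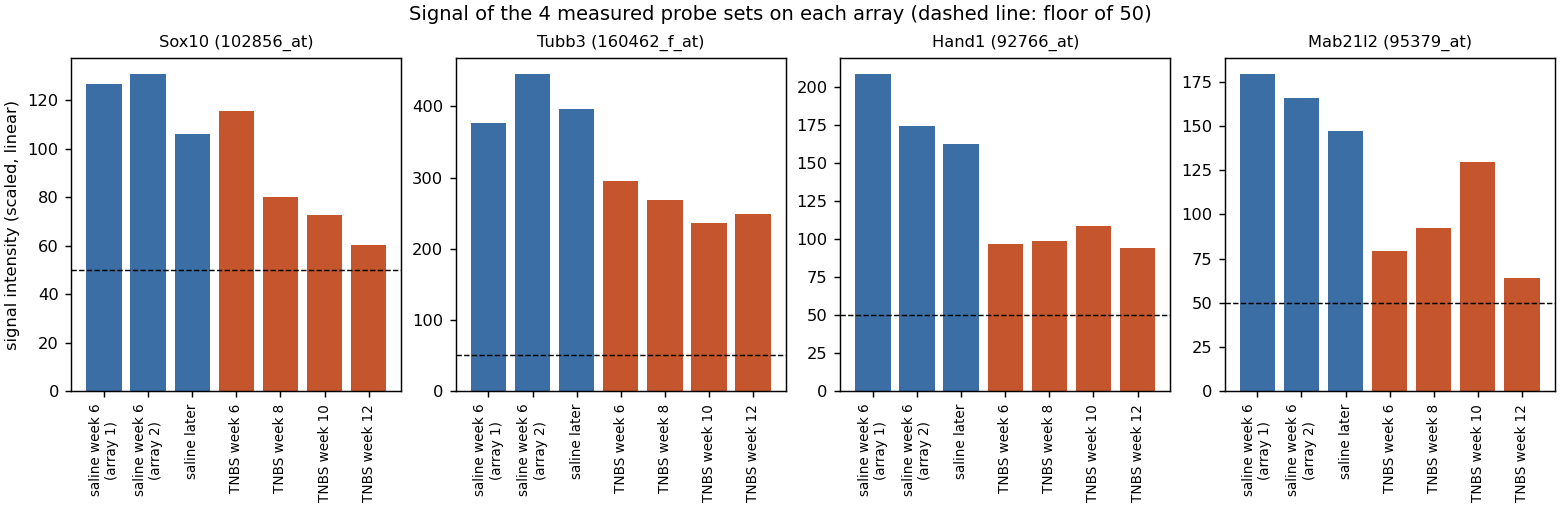
Signal intensity (linear, scaled by the authors to a target of 150) of the probe sets of Sox10, Tubb3, Hand1 and Mab21l2 that passed the filter, on each of 7 arrays; blue bars are saline, orange bars TNBS, and the dashed line is the floor of 50. Tubb3, Hand1 and Mab21l2 are lower on every TNBS array than on every saline array, while the week 6 TNBS bar of Sox10 (115.5) stands above the later saline bar (106.1).

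Among the neuronal genes Tubb3 was measurable. It encodes the class III beta-tubulin that is widely used as a neuron marker. Its signal was 376.4 and 445.7 on the arrays of the week 6 saline pool and 396.5 in the later saline pool. It was 295.9, 268.4, 236.0 and 249.4 in the TNBS pools of weeks 6, 8, 10 and 12. The groups did not overlap, and the lowest saline array lay above the highest TNBS array. Tubb3 was 1.38-fold lower than its saline pool at week 6, 1.48-fold at week 8, 1.68-fold at week 10 and 1.59-fold at week 12. Both saline pools were nearly level, with a log2 difference of -0.047 of the later from the earlier pool.

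The probe set of Tubb3 belongs to the class whose probes match several members of a gene family, marked by the suffix f in its name. The other beta-tubulins on the array were therefore looked at, a choice made after the values were known. Tubb5, a widely expressed beta-tubulin, read 751.5 and 842.7 in week 6 saline, 808.8 in later saline, and 882.5, 806.3, 642.3 and 714.9 in the TNBS pools in order of time. Tubb6 read 241.9 and 220.4, 247.2, and 330.5, 336.6, 230.5 and 178.4 in the same order. Tubb2a, on its f probe set, read 263.1 and 198.6, 193.6, and 252.2, 389.5, 197.6 and 154.4. None of these showed the pattern of the Tubb3 probe set, since each had TNBS pools above saline arrays. Their pooled log2 differences, from the fit described below, were -0.043 for this Tubb5 probe set, 0.18 for Tubb6 and 0.20 for Tubb2a, against -0.58 for Tubb3. Tubb4a and further probe sets of Tubb5 and Tubb2a had 0.21, 0.058 and -0.052. Tubb4b, which did not pass the filter, read 68.8 and 75.2, 54.1, and 74.9, 16.3, 36.9 and 29.2 in the same order. It was thus under the floor in the 3 later TNBS pools and above it on all saline arrays. A second Tubb3 probe set, also with the suffix f, read between 15.4 and 78.7 and reached the floor on 3 of 7 arrays, with saline arrays at 32.3, 78.7 and 44.7. The share of the Tubb3 signal that comes from other tubulins was not tested.

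**Figure D2:**
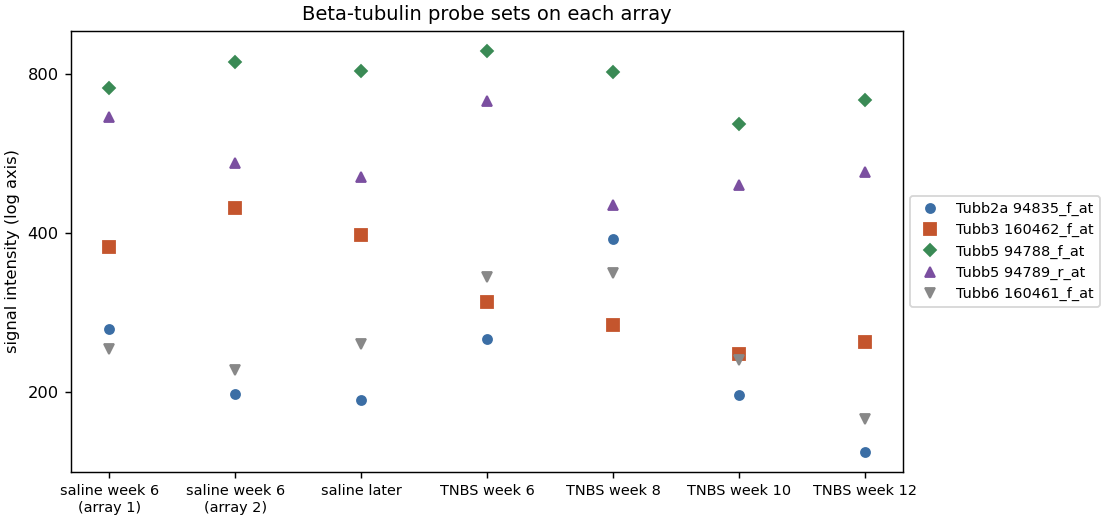
Signal intensity (log axis) of 5 beta-tubulin probe sets on each array, with Tubb3 as orange squares. Tubb3 runs from 376.4 to 445.7 on the saline arrays and from 236.0 to 295.9 on the TNBS arrays, while Tubb6 is highest in the TNBS pools of weeks 6 and 8 (330.5 and 336.6).

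Ret and Vip did not reach the filter. Ret, the receptor for glial cell line-derived neurotrophic factor and its relatives, read between 2.9 and 4.3 on all 7 arrays, below the signal of most probe sets: 7.2% of all probe sets had a lower median. Vip encodes vasoactive intestinal peptide, which relaxes smooth muscle and drives secretion. Its signal was 49.1 and 46.8 in week 6 saline, 43.4 in later saline, and 64.0, 45.4, 66.6 and 35.1 in the TNBS pools of weeks 6, 8, 10 and 12. Vip thus reached the floor in the TNBS pools of weeks 6 and 10 alone and the filter nowhere, so no fold is given.

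Among the glial genes Sox10 was measurable on 1 of its 2 probe sets. Sox10 is an HMG box transcription factor of neural crest cells that enteric glia keep in the adult. Its signal was 126.6 and 130.9 in week 6 saline and 106.1 in later saline. It was 115.5, 80.3, 72.6 and 60.1 in the TNBS pools of weeks 6, 8, 10 and 12. The groups overlapped, since the week 6 TNBS pool read above the later saline pool, while the 3 later TNBS pools lay below all saline arrays. Against the later saline pool in place of its own, the week 6 TNBS value has a log2 difference of 0.12, with the sign turned. Sox10 was 1.11-fold lower than saline at week 6, 1.32-fold at week 8, 1.46-fold at week 10 and 1.77-fold at week 12, and the later saline pool was itself 1.21-fold below the week 6 saline pool. With a floor of 100 the later 3 TNBS pools all stand at the floor, and the log2 difference of each from saline is then -0.085.

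The second Sox10 probe set read between 4.2 and 16.7, under the floor throughout, so it gives no second reading of the gene. S100b, a calcium-binding protein of glia, read between 9.1 and 34.4 and was under the floor on all 7 arrays. Its highest value was in the week 6 TNBS pool and its lowest in the week 8 TNBS pool, both below the floor.

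**Figure D3:**
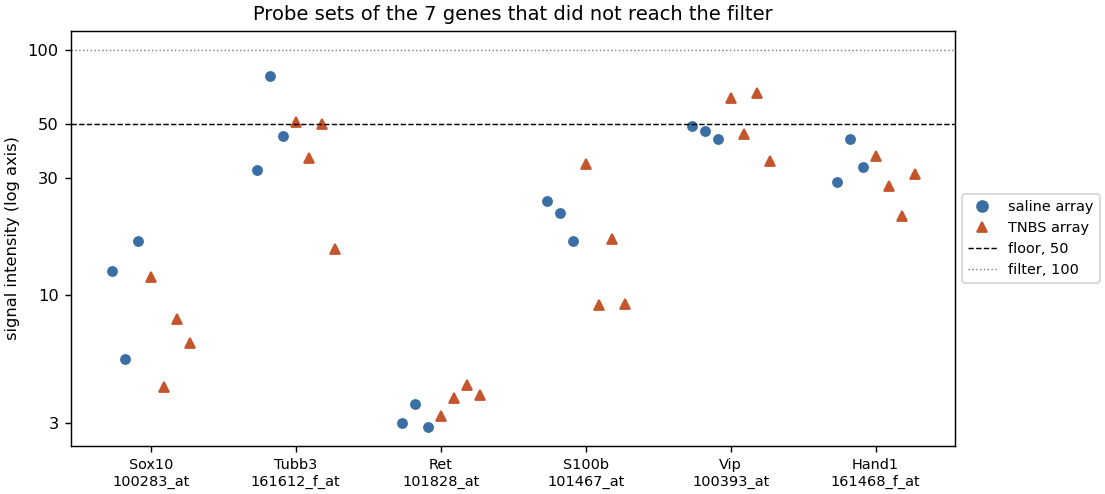
Signal intensity (log axis) of the 6 probe sets that did not reach the filter of 100 (dotted line), with saline arrays as blue circles and TNBS arrays as orange triangles. Ret lies between 2.9 and 4.3, and Vip lies around the floor of 50 (dashed line), at 35.1 to 66.6.

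Hand1 and Mab21l2 had the lowest differences of the 4 genes at weeks 6 and 8 and in the pooled fit. At week 10 Tubb3 was lowest, and at week 12 Sox10 was below Hand1. Hand1 is a basic helix-loop-helix transcription factor of embryonic mesoderm, a relative of Hand2, which enteric neurons need. Hand1 read 208.5 and 174.2 in week 6 saline and 162.3 in later saline. It read 96.5, 98.6, 108.6 and 94.2 in the TNBS pools of weeks 6, 8, 10 and 12. The TNBS pools lay close together and below every saline array. Hand1 was 1.97-fold lower than saline at week 6, 1.65-fold at week 8, 1.49-fold at week 10 and 1.72-fold at week 12. Its second probe set, again of the family class, read 21.0 to 43.5, under the floor on all arrays.

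Mab21l2 is a vertebrate relative of the nematode cell fate gene mab-21 and acts in eye, limb and body wall formation. It read 179.6 and 165.8 in week 6 saline, 147.5 in later saline, and 79.2, 92.4, 129.5 and 64.3 in the TNBS pools of weeks 6, 8, 10 and 12. All TNBS pools lay below all saline arrays, but the week 10 pool was close to later saline. Mab21l2 was 2.18-fold lower at week 6, 1.60-fold at week 8, 1.14-fold at week 10 and 2.29-fold at week 12. Adding 50 to all signals in place of the floor puts its log2 differences at -0.79 at week 6 and -0.79 at week 12, under 2-fold. With a floor of 100 they are -0.79 and -0.56.

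The week 6 and week 12 values of Mab21l2 were 2 of 16 member differences that reached 2-fold, and no other did. Hand1 at week 6 joins them with quantile normalization (-1.04), with the arrays set to equal medians (-1.01) or without the second week 6 saline array (-1.11). Against the week 6 saline pool Sox10 (-1.10) and Hand1 (-1.02) join them at week 12. In the background 1.1% of the 5458 probe sets past the filter were at least 2-fold lower and 2.71% at least 2-fold higher at week 6. At week 8 these shares were 1.89% and 1.85%, at week 10 0.916% and 1.01%, and at week 12 1.03% and 0.916%. Setting the arrays to equal medians moved the balance of these calls toward higher: 43 lower and 170 higher at week 8 (103 and 101 as scaled by the authors), 33 and 95 at week 10 (50 and 55) and 47 and 66 at week 12 (56 and 50). Quantile normalization gave 58 and 113 at week 8. The members stayed below 0 at all 4 times under both. The Hand1 difference of week 6 had 1.12% of probe sets below it and that of Mab21l2 0.641%. At week 12 Mab21l2 had 0.55% and Sox10 2.03% of probe sets below it, and at week 10 Tubb3 had 3.77%. The comparisons of weeks 8, 10 and 12 share the later saline pool, so their values are not independent. That pool read below the week 6 saline pool for all 4 genes, by log2 0.28 for Sox10, 0.23 for Hand1 and Mab21l2 and 0.047 for Tubb3 as sizes of the difference.

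**Figure D4:**
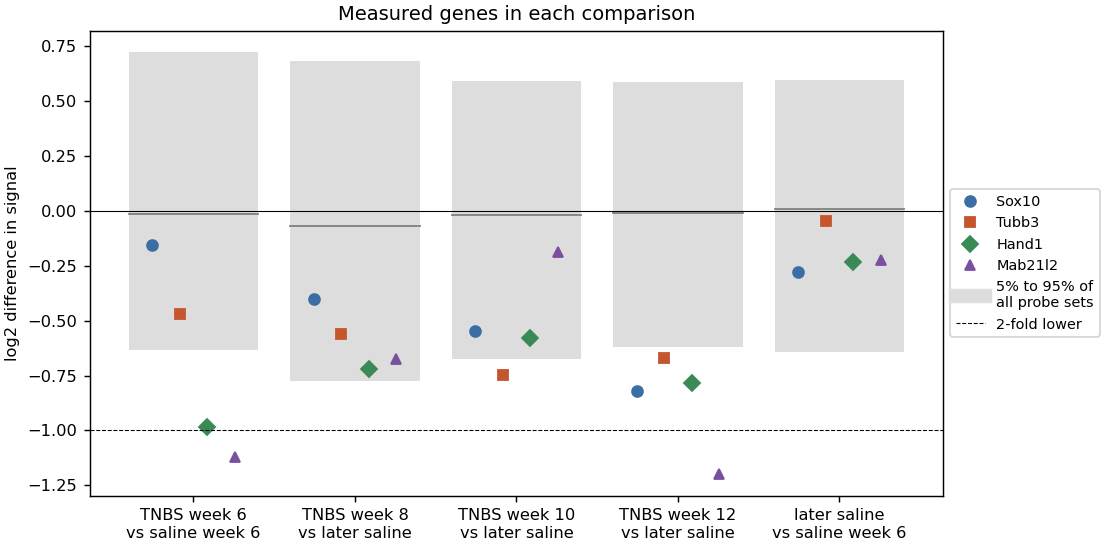
Log2 difference in signal of Sox10, Tubb3, Hand1 and Mab21l2 in the 4 comparisons of TNBS with saline and between both saline pools; the grey band spans the central 90% of all probe sets past the filter, the grey line is their median and the dashed line marks 2-fold lower. Every TNBS point lies below 0, and Mab21l2 lies below the dashed line at weeks 6 and 12 (-1.12 and -1.20).

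The times were combined in a fit across all probe sets past the filter, in which the 4 TNBS pools count as replicates and each is set against its own saline pool (limma, two-sided, Benjamini-Hochberg adjustment, threshold 0.05). No probe set passed, which is 0% of 5458, and the smallest adjusted p was 0.285, for Cd53, a leukocyte membrane protein. At an unadjusted p under 0.05 there were 277 probe sets, 5.08% of those tested, of which 138 were lower in TNBS, 2.53%. The pooled log2 difference of Mab21l2 was -0.86 ± 0.31 (SE), with a 95% interval of -1.58 to -0.15. That of Hand1 was -0.81 ± 0.20, interval -1.27 to -0.35, and that of Tubb3 -0.58 ± 0.16, interval -0.96 to -0.21. That of Sox10 was -0.42 ± 0.25, with an interval of -0.99 to 0.15 that holds 0. In limma the unadjusted p-values were 0.00376 for Hand1, 0.00726 for Tubb3, 0.0241 for Mab21l2 and 0.13 for Sox10, and the adjusted p was 0.893 for each.

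Of 5458 probe sets 11 had a lower pooled difference than Mab21l2, 16 than Hand1, 101 than Tubb3 and 336 than Sox10. All 4 genes lay below 0 at every time, which held for 15.6% of all probe sets. Every TNBS pool lay below both saline pools for 3 of the 4, and for 9.27% of all probe sets. The genes were picked with results of these data known, so these shares describe them and support no further claim.

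The interaction term of the same fit asked whether the TNBS difference at week 6 differs from that of the later pools. In limma no probe set passed after adjustment, 0% of those tested, and 92 had an unadjusted p under 0.05, or 1.69%. Sox10 was less low at week 6 than later, by a log2 of 0.43 with a 95% interval of -0.73 to 1.59. Tubb3 had 0.19 (-0.67 to 1.05), Hand1 -0.29 (-1.31 to 0.73) and Mab21l2 -0.44 (-2.20 to 1.32). Adjusted p-values in limma were 1 for all 4. The intervals span differences of more than 1.5-fold in both directions, so a course over time could not be resolved with single pools.

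The RefSeq promoter table (GRCm38.p6) held entries for 4 of the 7 genes: Tubb3, Mab21l2, S100b and Vip. Sox10, Ret and Hand1 were not matched. The 250 bases before the start sites of Tubb3 and Mab21l2 are shown because these are measurable genes that read lower in every TNBS pool. Tubb3 lies at chr8:123411303-123411552 on the plus strand and Mab21l2 at chr3:86548284-86548533 on the minus strand, each printed 5′ to 3′ in the direction of transcription. Capitals mark matches, on either strand, to the core letters of SOX factor sites (ACAAT), the TATA motif (TATAA) and the GC box (GGGCGG). The E-box of basic helix-loop-helix factors (CANNTG) was searched too and had no match in either window.
Tubb3: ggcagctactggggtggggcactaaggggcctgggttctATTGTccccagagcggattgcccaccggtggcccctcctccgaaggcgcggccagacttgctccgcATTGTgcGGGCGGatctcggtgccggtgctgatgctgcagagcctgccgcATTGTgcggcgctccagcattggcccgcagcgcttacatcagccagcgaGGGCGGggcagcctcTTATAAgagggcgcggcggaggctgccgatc
Mab21l2: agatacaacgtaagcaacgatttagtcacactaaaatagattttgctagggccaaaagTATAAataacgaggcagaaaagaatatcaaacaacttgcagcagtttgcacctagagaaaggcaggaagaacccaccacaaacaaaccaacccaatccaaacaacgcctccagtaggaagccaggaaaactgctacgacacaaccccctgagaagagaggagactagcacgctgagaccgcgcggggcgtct

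The Tubb3 window held 3 matches to the SOX core, starting 211, 145 and 95 bases before the start site, all on the strand opposite to the printed one. It also held 2 GC boxes and, 31 to 26 bases before the start site, TATA matches on both strands that overlap each other. The Mab21l2 window held 1 TATA match, 192 bases before the start site, and none of the others. Among 32851 promoter windows of equal length 27.7% held the SOX core, 22.8% the TATA motif, 32.7% the GC box and 66.2% the E-box. The matches are letters in a window, not measured binding sites.

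Other genes of these cells were read from lists drawn up by role, none of which holds a member. The enteric neuron list had 9 probe sets past the filter, of which 7 lay below 0 in the pooled fit, with a median log2 difference of -0.22 against -0.025 over all probe sets. No gene passed the limma test in either direction, and by week the medians were -0.27, -0.15, -0.070 and -0.22. Calb2, the calcium-binding protein calretinin of many enteric neurons, read 118.5 and 89.1 in week 6 saline and 31.1 in the week 6 TNBS pool. It was at least 2.06-fold lower there, but read 51.3 in later saline and 38.9, 68.4 and 74.1 in the later TNBS pools, so it was also low without TNBS. The week 6 saline pool, the high side of this difference, alone carried Calb2 past the filter. Tac1, the precursor of substance P, went the other way at week 6, with 184.1 against 69.4 and 81.9, or 2.44-fold higher. It read 72.3 to 80.1 on the 4 later arrays, so the week 6 TNBS pool alone carried it past the filter.

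Within the enteric neuron list a pair of further genes, named after their values were seen, came nearest to the pattern of the members. These 2 of its 9 probe sets lay below both saline pools in every TNBS pool, which held for 9.27% of all probe sets. Probe sets of smooth muscle, adipose and epithelial genes did so too, as given below. Uchl1, a ubiquitin hydrolase known as the neuron marker PGP9.5, read 148.3 and 136.8 in week 6 saline, 111.9 in later saline, and 76.2, 104.2, 96.7 and 80.6 in the TNBS pools by week. All its TNBS values lay below all its saline values. Vamp2, a synaptic vesicle protein, read 345.0 and 310.9, 390.8, and 240.1, 254.5, 321.8 and 323.7, with an overlap at weeks 10 and 12 with one of the arrays of week 6 saline. In the limma fit Uchl1 had a pooled log2 difference of -0.52 ± 0.25 (SE) and Vamp2 of -0.41 ± 0.18, with an adjusted p of 0.893 for both.

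Glial and Schwann cell genes past the filter were 5, all below 0 in the pooled fit, and none passed the limma test or reached 2-fold. Their pooled median was -0.25, and that of all probe sets was itself below 0, at -0.025. Erbb3, a neuregulin receptor that epithelium also makes, was 1.65-fold and 1.36-fold lower at weeks 6 and 8 and 1.23-fold higher at week 10. Mbp, a myelin protein, was 1.71-fold lower at week 8, where it read 98.8 against 168.8. Mal, a membrane protein of myelin and of epithelia, was 1.66-fold and 1.59-fold lower at weeks 10 and 12. Entpd2, an ATP-cleaving enzyme of enteric glia, was 1.56-fold lower at week 8 and within 1.04-fold of saline at the other times. The medians by week were -0.24, -0.44, 0.0073 and 0.028. At weeks 10 and 12 2 of the 5 genes lay below 0, Mal and Pmp22, another myelin protein (log2 -0.48 and -0.29).

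Of the genes that signal to neural crest cells 4 of 14 on the array passed the filter, against 4316 of all 8251 genes. Their median was -0.14. Gdnf and Gfra1, the ligand and co-receptor that act with Ret, reached 71.9 and 18.7 at most, and Ednrb, the endothelin receptor of crest cells, 19.6. Vipr1, a receptor for vasoactive intestinal peptide that epithelial cells carry, read 83.6 in later saline and 47.0 in the week 8 TNBS pool, at least 1.67-fold lower. Bmp4, a morphogen, was 1.46-fold lower at week 12 and Ece1, the enzyme that activates endothelins, 1.43-fold lower at week 6. Nrtn, a Ret ligand, stayed within 1.17-fold of its saline pool at all 4 times.

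The gut mesenchyme transcription factors had 7 of 26 genes past the filter, against 4316 of 8251 genes over the whole array. Of the 7, 5 lay below 0 in the pooled fit, with no call in limma. Their median was -0.40, against -0.025 over all probe sets. Hand2, Foxf1 and Nkx2-3, which shape gut muscle and mesenchyme, reached 24.7, 33.7 and 46.6 at most. Gata4, a regulator of endoderm and mesoderm, read 107.4 in later saline and 45.4 in the week 8 TNBS pool, at least 2.15-fold lower, and 109.2 in the week 6 TNBS pool. Hoxd11, a positional gene of the hindgut, read 102.6 and 99.2 in the TNBS pools of weeks 10 and 12 and 33.8 in later saline, at least 2.05-fold higher at week 10. Only its week 10 TNBS value reached the filter. Tcf21, a helix-loop-helix factor of visceral mesenchyme named after its values were seen, read 166.3 and 211.2, 158.2, and 151.9, 108.1, 133.9 and 87.3. It was below saline in all TNBS pools, the only 1 of the 7, where 9.27% of all probe sets were. Its pooled log2 difference was -0.45 ± 0.23 (SE), with an adjusted limma p of 0.893.

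**Figure D5:**
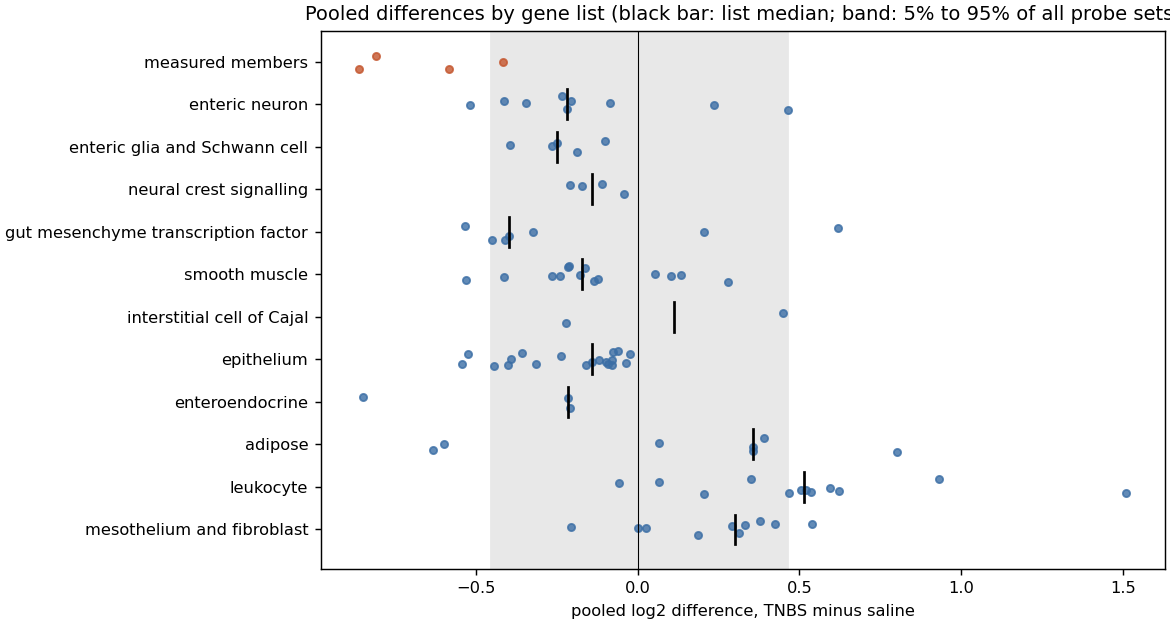
Pooled log2 difference of TNBS minus saline (x axis) for each probe set past the filter, by gene list; orange points are the 4 measured member genes, black bars are list medians and the grey band spans the central 90% of all probe sets. The members lie between -0.86 and -0.42, the enteric neuron list has a median of -0.22 and the leukocyte list one of 0.51.

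Markers of the other cells in the colon wall were read beside the members. The smooth muscle list had 14 probe sets past the filter, and its median log2 difference was -0.18, 0.17, -0.0037 and -0.35 at weeks 6, 8, 10 and 12. Its summed signal was 23081 to 24786 on the saline arrays and 19028 to 27726 in the TNBS pools. Of its 14 probe sets 12 were below 0 at week 6, 4 at week 8, 7 at week 10 and 13 at week 12. Over all probe sets the median was -0.016, -0.070, -0.019 and -0.0086 at these weeks. Mab21l2 was lowest at weeks 6 and 12. Smtn, the smooth muscle protein smoothelin, named after its values were seen like Myh11, was 1.91-fold lower at week 6, and Myh11, smooth muscle myosin, 1.56-fold. In the limma fit Smtn had a pooled log2 difference of -0.53 ± 0.20 (SE), with an adjusted p of 0.893. The summed smooth muscle signal was highest at week 8, and all 4 members were below saline at that time. A part of smooth muscle content in the member differences was not tested. All TNBS sums lay below all saline sums for 3 of the 11 lists. These were the enteric neuron list (1113 to 1483 against 1513 to 1611), the gut mesenchyme transcription factors (508.3 to 738.2 against 748.3 to 850.1) and the enteroendocrine list, on 3 probe sets (469.1 to 521.0 against 587.7 to 641.8). Gene by gene, 2 of 9, 1 of 7 and 1 of 3 of their probe sets lay below both saline pools in every TNBS pool, where 9.27% of all probe sets did. The same held for 2 of 7 in the adipose list, 2 of 14 in the smooth muscle list and 2 of 19 in the epithelial list. In the remaining lists it held for none. Ddc, an enzyme of amine transmitter synthesis in the neuron list named after its values were seen, read 538.9 in the week 12 TNBS pool and 380.8 to 412.9 on the saline arrays.

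The leukocyte list had 11 of 12 probe sets above 0 in the pooled fit, with a median of 0.51 and a summed signal of 7753 in the week 6 TNBS pool against 4408 to 4992 on the saline arrays. In the other TNBS pools the sum was 4623 to 5605. The fibroblast and mesothelium list read 7473 in the week 6 TNBS pool against 4248 to 5242 in saline. The epithelial list had all 19 probe sets below 0 in the pooled fit, with a median of -0.14 against -0.025 over all probe sets. The adipose list had a median of 0.36. For the interstitial cells of Cajal, pacemakers of gut muscle, Kit had a pooled log2 difference of -0.22 and Gja1 of 0.45. The part of these cell types in the member differences was not tested.

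The genes whose log2 values followed each member most closely over the 6 pools were picked by Pearson's r, as a description over points that fall into TNBS and saline pools. For Mab21l2 these were Svil, an actin-binding protein of muscle (0.998), Ighg3, an immunoglobulin constant region (0.981), and Ica1 (0.970). For Hand1 they were Ntn1, the guidance and adhesion factor netrin 1 (0.980), Nfe2l1 (0.978) and Mettl26 (0.976). For Tubb3 they were Mettl7a1 (0.986), Ndufab1, a mitochondrial acyl carrier protein (0.986), and Traf4 (0.985), and for Sox10 Ttc4 (0.988), Ephb6 (0.987) and Gh (0.982). Svil read 933.8 and 996.8 in week 6 saline, 913.3 in later saline and 743.9, 786.6, 887.1 and 681.6 in the TNBS pools, with the same order of pools as Mab21l2 and smaller steps. Between 24 and 108 of the 5458 probe sets had an r of at least 0.9 with a given member.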

How the data were processed

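Per the labels, the authors processed the arrays with Affymetrix Microarray Suite 5.0 (MAS5) and deposited signal intensity per probe set, unlogged, at a target of 150. The starting material was 10 µg of pooled total RNA. No genome build is given in the sources used here. From 12488 probe sets 66 controls were removed. By the platform annotation (2016), 10833 of the others carry 1 symbol, 396 several and 1193 none; Entrez identifiers of 10817 matched the RefSeq table. Signals under 50 were raised to 50 and log2 was taken. The repeat array of week 6 saline was averaged with its partner. The filter of 100 in the highest pool left 5458.

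Week 6 TNBS was set against week 6 saline, and weeks 8, 10 and 12 against the later saline pool. With 1 pool a side these differences have no test and were counted from 2-fold. In R 4.3.3 with limma 3.58.1 (intensity trend), 6 pools were fitted with the control set as covariate (3 residual degrees of freedom) or an interaction (2), after the pipeline had been tested on simulated data. p-values measure the spread between pools of different times, not between mice. The members and lists were chosen with earlier results of these data known. Named are all probe sets of the members, 3 genes most like each, and, from the lists of neurons, glia, crest signalling and mesenchymal factors, genes that passed a test or 2-fold, or otherwise up to 4 with the largest differences. Where 1 side of a comparison lies at the floor, the fold is a lower bound. The alternatives were other floors, filters, scalings, probe set summaries, covariates and controls, and each array left out.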

Additional observations from a re-analysis of the deposited data

How the results depend on the processing

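Every pooled log2 difference of the 4 measured members, 63 values under the alternatives, stayed below 0, and no adjusted p passed. The ranges were -0.59 to -0.11 for Sox10 (limma adjusted p 0.774 to 1), -0.66 to -0.35 for Tubb3 (0.453 to 1), -0.86 to -0.59 for Hand1 (0.366 to 1) and -1.02 to -0.58 for Mab21l2 (0.637 to 1). Without the week 6 TNBS pool Mab21l2 had -0.69, with an unadjusted limma p of 0.155. The interaction turned sign for Sox10 with a floor of 100 (-0.071) and for Tubb3 with the mean of a gene's probe sets (-0.055). With that floor Sox10 had -0.156 at week 6 and -0.085 at each later time, where its TNBS pools stood at the floor. The second Tubb3 probe set, which enters the mean, had -0.301 at week 6. At weeks 8, 10 and 12 it had 0, with both sides at the floor. With a filter of 200 Tubb3 alone was measured, and with the mean of probe sets Sox10 and Hand1 did not pass, so they have no value there. The count of pooled calls in limma, 0, became 19 with no filter, and 0 to 4 with an array or pool left out, where the 4 came without the week 12 TNBS pool. The interaction count, 0, became 295 with a floor of 100 and 725 with no filter, and stayed 0 with a pool or array left out. Both settings leave more values level at the floor, so these counts are not read as effects of time. With a floor of 100 the unadjusted limma p of the Sox10 interaction fell from 0.384 to 0.0177, while its log2 value went from 0.43 to -0.071. Counts of 2-fold differences, in the order week 6, 8, 10, 12 and between saline pools, were 208, 204, 105, 106 and 120. They became 133, 111, 50, 48 and 62 with a floor of 100; 116, 93, 40, 51 and 62 with 50 added to the signal; and, for the mean of a gene's probe sets, 124, 107, 43, 56 and 57. With a filter of 200 those of week 8, 10, 12 and saline were 126, 58, 60 and 79, and with the highest probe set per gene those of week 10, 12 and saline were 64, 69 and 78. Against the other saline pool weeks 8, 10 and 12 gave 407, 210 and 220. With 1 array of week 6 saline left out, week 6 gave 227 to 268 and the saline pools 155 to 182, the latter without the second array. Equal array medians moved the median of all probe sets from -0.070 to 0.11 at week 8 and from -0.019 to 0.12 at week 10. No paired analysis was possible because the groups share a single replicate number and each is 1 pool. Signals near 100 are close to background here, which limits Sox10, Hand1 and Mab21l2 more than Tubb3.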
